A study of Trichoderma atroviride IMI 206040 with 36 samples.

Results

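The transcriptome of the Δblr-2 mutant of *Trichoderma atroviride* was compared with that of the Δblr-1 mutant after a pulse of blue light. The strain and treatment labels gave the members of the comparison, 3 Δblr-2 light libraries and 3 Δblr-1 light libraries, which are 6 of the 36 samples of the series. The question was whether the mutants of the 2 partners of the BLR complex look alike once they have been lit. *T. atroviride* is a soil fungus that attacks other fungi and that forms a ring of green conidia where the mycelium has been exposed to light. Each mutant lacks 1 of the blue-light regulators *blr*-1 and *blr*-2, and both are given as derived from the wild type (WT) IMI 206040. Colonies of every strain grew in darkness for 36 h on potato dextrose agar covered with cellophane. The light groups received a blue pulse of 200 µmol per m2 and were collected 30 min later, and the dark groups never saw the pulse. Both groups of each mutant had 3 libraries that the labels call biological replicates, so that the dark libraries show which differences were there without light. Libraries of WT and of Δ*env*-1, a mutant of the light-adaptation protein ENVOY, entered the same fit, and WT light values are given below as the level reached when both partners are present. Each mutant is given as 1 strain with no second transformant, so that an effect of the deletion and of anything else that differs between these 2 strains cannot be told apart.

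BLR-1 and BLR-2 are the *Trichoderma* relatives of the White Collar proteins of *Neurospora crassa*. BLR-1 carries the LOV domain that binds a flavin and senses blue light, whereas BLR-2 has a PAS domain for pairing and a zinc finger. Together they form a complex that binds the promoters of light-responsive genes and activates them within minutes, and the complex is required for conidiation after light. Loss of either partner is known to abolish photoconidiation in this fungus.

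The deposited table lists estimated counts of 11863 transcripts. In the 24 columns read, 319 of them stayed at 0, and 9605 passed the filter on low counts and were tested. Totals of the Δblr-1 light libraries were 1519260, 20872424 and 4595799 counts, and those of the Δblr-2 light libraries were 6843985, 12062204 and 7034715. The shallow first Δblr-1 library therefore needs 1.98 CPM (counts scaled to a common library size) to show 3 counts, while the other 5 light libraries need 0.148 to 0.640. CPM values below are scaled over the 23 fitted libraries with the trimmed mean of M values (TMM). They count reads per gene without regard to length, so they compare 1 gene between strains and not genes with each other. No source used here gives the Id of *blr*-1 or *blr*-2 in this table, and the deletions could not be checked from the 2 genes themselves. P-values rest on a spread between replicates estimated over all 23 fitted libraries, WT and Δ*env*-1 included. No permutation of 3 against 3 libraries could go below p = 0.1 for a single value.

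After light the 2 mutants differed in 1023 genes. A gene is called here where its difference is at least 2-fold and its adjusted p does not exceed 0.05 (edgeR's quasi-likelihood test, Benjamini-Hochberg adjustment over all genes tested). Of the called genes 800 were higher in Δblr-2 (8.33% of all tested) and 223 were lower (2.32%). By size, 248 of the higher genes were past 4-fold and 46 past 16-fold, against 52 and 8 of the lower genes. The higher genes were weakly expressed in Δblr-1 light, with a median of 8.15 CPM against 32.0 over all genes, and reached a median of 31.7 CPM in Δblr-2 light. Together the 800 genes took 25405 to 25950 CPM in the 3 Δblr-1 light libraries, 75673 to 97883 in the 3 Δblr-2 light libraries and 33605 to 40221 in WT light. They were chosen by this contrast, so these sums describe its size only.

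Most genes were nevertheless close in the 2 mutants. The 95% interval of the log2 ratio of Δblr-2 over Δblr-1 lay wholly between −1 and 1 for 7088 genes (73.8%), which is called held within a 2-fold range below, and 1494 genes were neither called nor held so. The 6 tested genes with no count in either light group count as held. Their interval of 0 to 0 rests on no data. The median log2 ratio over all genes was −0.01 and the median absolute ratio was 0.27. Across all genes tested, Spearman's rho between a Δblr-1 and a Δblr-2 light library was 0.941 to 0.964. Between libraries of 1 mutant it was higher, 0.988 to 0.995 within Δblr-1 light and 0.993 to 0.996 within Δblr-2 light. These correlations are across genes, which are not independent replicates. On the first principal component, which held 31.0% of the variance of the 1000 most variable genes, the Δblr-2 light libraries lay at 42.8 to 51.5 and the Δblr-2 dark libraries at 13.1 to 16.8. The remaining libraries, Δblr-1 included, lay between −14.8 and −5.02.

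**Figure D1:**
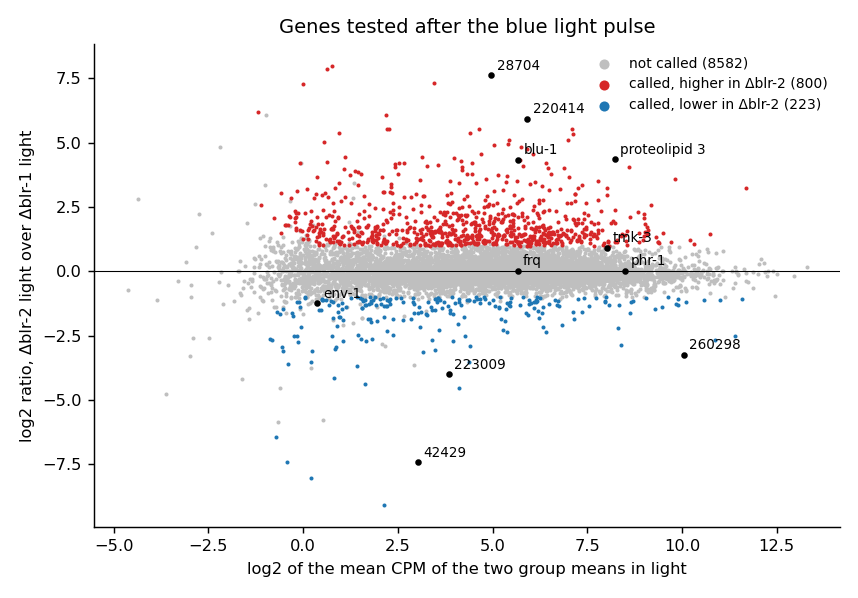
Log2 ratio of Δblr-2 over Δblr-1 light (vertical axis) against the log2 of the mean CPM of the 2 light groups (horizontal axis), 1 point per gene, with called genes in color. Of 9605 genes tested, 9599 are drawn and 6 with no count in either light group are left out. The 800 genes called higher lie above 0 and the 223 called lower lie under it.

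The comparison in darkness contrasts dark libraries only and showed fewer differences between the mutants. Its p-values share 1 estimate of the spread with the light comparison, so the 2 sets of calls are not fully independent. In darkness 262 genes were higher in Δblr-2 than in Δblr-1 (2.73%) and 111 were lower (1.16%), with a median absolute log2 ratio of 0.17. Higher calls in both light and darkness were 203, which is 25.4% of the light list and 77.5% of the dark list. Lower calls in both were 74, or 33.2% of the light list and 66.7% of the dark list, and 4 genes were called in opposite directions. The dark libraries of the 2 mutants correlated at 0.976 to 0.984. Between darkness and light, libraries of Δblr-1 correlated at 0.988 to 0.995 and those of Δblr-2 at 0.954 to 0.974.

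The difference between the light and the dark contrast was itself tested for each gene. This interaction passed an adjusted p of 0.05 for 1504 genes in the quasi-likelihood test. For 977 of them (10.2%) the ratio of Δblr-2 over Δblr-1 was greater in light than in darkness, and for 527 (5.49%) it was smaller. Thinning the libraries to equal depth gave 869 interaction genes in place of 1504, and the smaller ratios numbered 304 without Δblr-2 light replicate 1 and 351 without Δblr-1 light replicate 2. Of the 800 genes that were higher in Δblr-2 light, 425 had a ratio that was greater in light, and of the 223 lower genes 58 had a ratio that was smaller in light. These genes were chosen by their light ratio, which is also a part of the interaction. That choice favors both counts, so they are a description only. The 800 genes took 38109 to 41044 CPM in Δblr-2 darkness and 23581 to 24427 in Δblr-1 darkness.

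**Figure D2:**
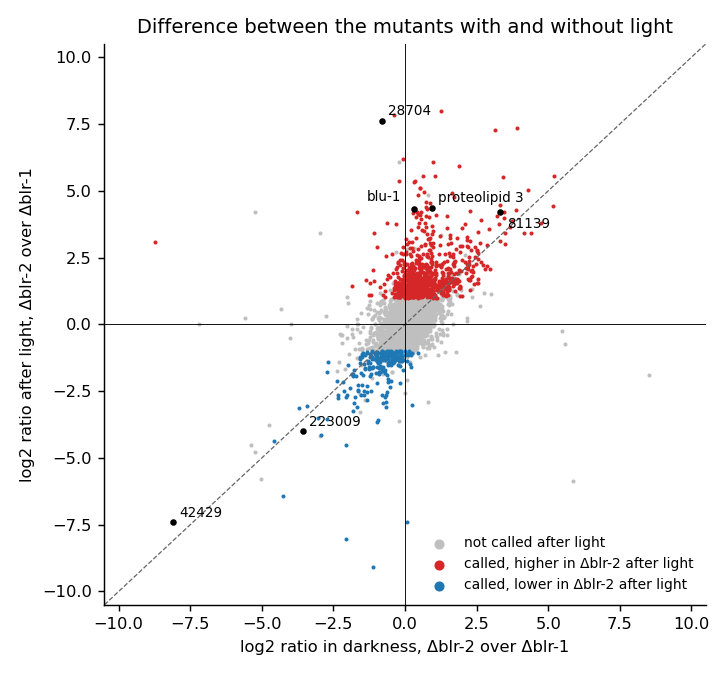
Log2 ratio of Δblr-2 over Δblr-1 in light (vertical axis) against the same ratio in darkness (horizontal axis) for all genes tested, with 6 named genes labelled and a dashed line of equal ratios. The axes share no library. *blu*-1 (4.34 in light, 0.30 in darkness) sits near 0 on the dark axis, while Id 42429 is low on both.

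Among genes of the light-sensing system and reporters of the response, *env*-1 was lower and *blu*-1 higher in Δblr-2. Of 8 photoreceptor, clock and reporter genes, 1 was called higher in Δblr-2 and 1 lower, beside 8.33% and 2.32% of all genes, and their median log2 ratio was 0.03. *env*-1 (Id 150699), which encodes the small LOV protein that damps the response and is the relative of *Neurospora* VIVID, was nearly silent in both mutants. It had 1.32, 1.87 and 2.35 CPM in the Δblr-1 light libraries and 0.443, 1.08 and 0.724 in the Δblr-2 light libraries, against a mean of 108 in WT light. The 2 mutant groups did not overlap, and *env*-1 was lower in Δblr-2 at a log2 ratio of −1.24 (95% interval −1.77 to −0.70, adjusted p = 0.00236), from 51 and 21 counts in all. The lowest Δblr-1 value, 1.32 CPM, lay under the 1.98 CPM that 3 counts need in that library. With the libraries thinned to equal depth the ratio was −1.76 and the call was lost. The call was also lost with a test against a 2-fold change itself (glmTreat). In darkness its means were 1.38 and 1.15 CPM.

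The blue-light reporter *blu*-1 separated the mutants most among these genes. *blu*-1 (Id 300570) encodes a small glucose-repressible protein and is used as the marker of early photoinduction in this fungus. It had 7.91, 4.19 and 5.33 CPM in Δblr-1 light and 145, 77.4 and 68.0 in Δblr-2 light. All 3 Δblr-2 libraries were far above all 3 Δblr-1 libraries, and the ratio was 20.2-fold (log2 4.34, 95% interval 3.70 to 4.98, adjusted p = 3.85e-10). The WT light mean was 627 CPM, so that *blu*-1 in Δblr-2 stayed below WT. In darkness the mutants were at 3.23 and 4.36 CPM, with a log2 ratio of 0.30 (adjusted p = 0.714), and the interaction was 4.04 on the log2 scale (adjusted p = 4.48e-05).

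*tmk*-3 (Id 301235), the stress-activated MAP kinase of the Hog1 type, was also higher, by less than the fold limit. It had 173, 181 and 180 CPM in Δblr-1 light and 395, 306 and 319 in Δblr-2 light, with no overlap. The log2 ratio of 0.93 (95% interval 0.77 to 1.08, adjusted p = 3.00e-09) fell just short of the 2-fold limit, and without Δblr-2 light replicate 2 it passed that limit. The dark means were 186 and 199 CPM, the interaction was 0.82 (adjusted p = 1.19e-05), and WT light was at 573. *cry*-1 (Id 86846), a photolyase and cryptochrome family gene, had 17.8, 18.5 and 18.3 CPM in Δblr-1 light and 29.5, 28.2 and 26.1 in Δblr-2 light. Its log2 ratio was 0.61 (95% interval 0.39 to 0.83, adjusted p = 8.49e-05), also without overlap and under the fold limit, with 40.0 CPM in WT light. The interaction of *cry*-1 missed the threshold (adjusted p = 0.0505).

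Other light-responsive genes differed little between the mutants. The photolyase *phr*-1 (Id 302457), which repairs UV damage with the energy of light, had 376, 386 and 318 CPM in Δblr-1 light and 351, 371 and 376 in Δblr-2 light. This is a log2 ratio of 0.02 (95% interval −0.14 to 0.19, adjusted p = 0.849), and both mutants were far under the WT light mean of 937. The clock gene *frq* (Id 131340) had 55.4, 46.6 and 49.7 CPM against 59.0, 45.5 and 46.8, with overlapping groups. Its log2 ratio was 0.03 (95% interval −0.17 to 0.22, adjusted p = 0.858), against 296 CPM in WT light. *cry*-DASH (Id 285589) was too low to place, with a log2 ratio of −0.71 and an interval from −2.02 to 0.59.

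*bld*-2 (Id 301399), the reporter that light represses in WT, was lower in Δblr-2. Its values were 3192, 3218 and 2580 CPM in Δblr-1 light and 1348, 1724 and 1493 in Δblr-2 light, and the groups did not overlap. The log2 ratio was −0.98 (95% interval −1.29 to −0.66, adjusted p = 2.45e-05), which is again just under the fold limit. It was called at −1.02 at equal depth, at −1.07 without Δblr-1 light replicate 3 and at −1.08 without Δblr-2 light replicate 2. In WT light the mean was 717 CPM. In darkness *bld*-2 was also lower in Δblr-2, at 2213 against 3245 CPM (log2 ratio −0.55, adjusted p = 0.0125), and the interaction did not pass (adjusted p = 0.205).

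**Figure D3:**
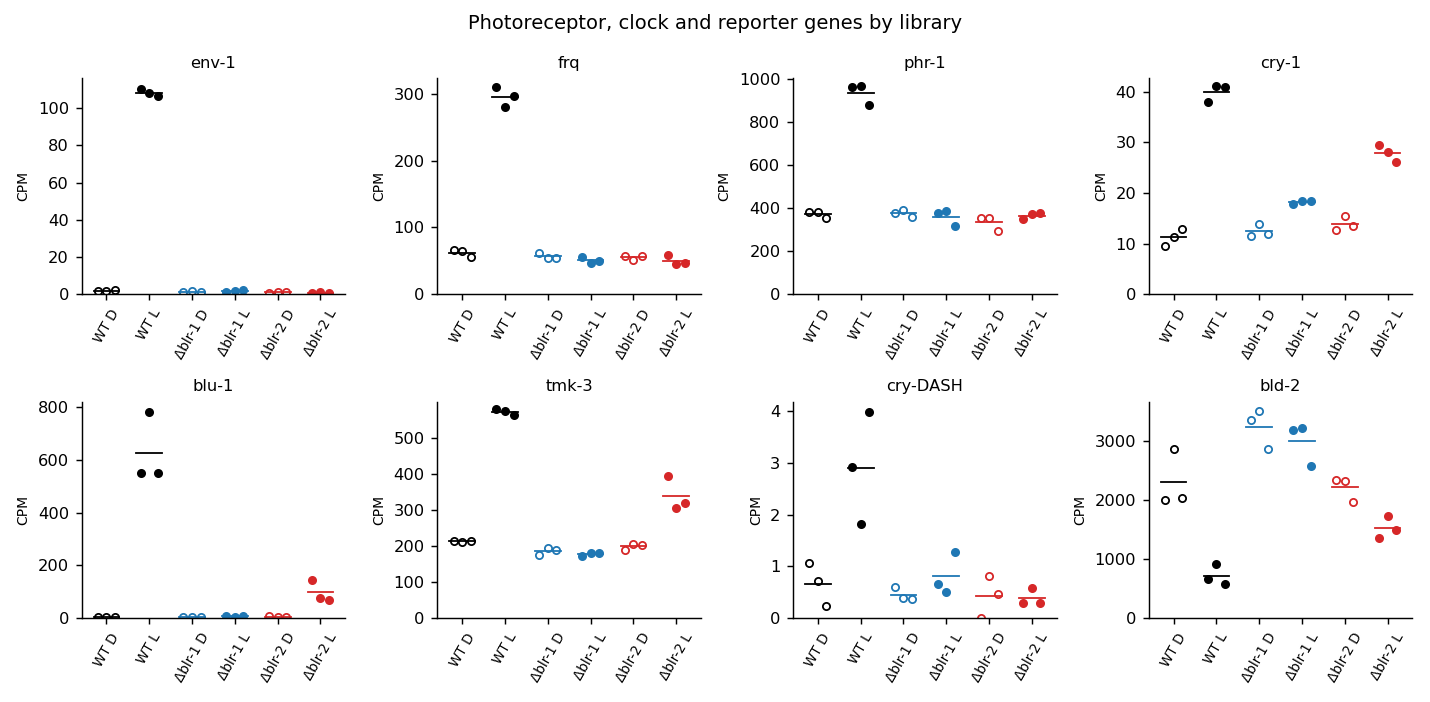
CPM (vertical axes, linear from 0) of 8 photoreceptor, clock and reporter genes in WT, Δblr-1 and Δblr-2, with 1 point per library, open for dark (D) and filled for light (L), and a line at each group mean. *blu*-1 lies at 4.19 to 7.91 in Δblr-1 light and at 68.0 to 145 in Δblr-2 light, while *phr*-1 and *frq* overlap between the mutants.

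Conidiation genes served as markers of spore-forming structures, a cell type that such plates can hold besides the mycelium. The 6 genes (3 hydrophobins, which coat the spore surface, a spore surface protein and 2 polyketide synthases of the spore pigment) gave 0 calls in either direction with edgeR, 0 at an unadjusted p under 0.05, and 0 with DESeq2 or limma-voom. Their summed level was 20.2 to 45.0 CPM in Δblr-1 light and 25.4 to 32.2 in Δblr-2 light, so the 2 mutants overlapped, with 40.1 to 551 in WT light and 70.0 to 593 in WT darkness. The low end of both WT ranges is WT replicate 2. Of the 6 genes 0 were held within a 2-fold range, so the mutants are not shown to be alike in them. In bulk mycelium, fewer spore-forming cells and less RNA per such cell cannot be told apart. The pigment gene *alb*-1 (Id 217154) had a log2 ratio of 1.38, an interval from −1.18 to 3.93 and an adjusted p of 0.401. Fitted without WT and Δ*env*-1, on the 6 light libraries or on the 12 libraries of the 2 mutants, it was called at 1.38 and 1.37.

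Among genes that the study lists as light-induced in WT, 31 were higher in Δblr-2 light than in Δblr-1 light. This list was chosen on WT libraries, which are not part of the contrast between the mutants, but it was taken up here with earlier results of these data known. Of its 97 genes 96 were tested, so that 32.3% were higher and 2 genes (2.08%) were lower, beside 8.33% and 2.32% of all genes. The median log2 ratio was 0.50, against −0.01 over all genes. By their interval 42 of the 96 genes (43.8%) were held within a 2-fold range, beside 73.8% of all genes. Id 206334 and Id 284689 are among the 42 although they had no count in either mutant in light. In darkness 8 of these genes were higher and 1 lower, beside 2.73% and 1.16% of all genes. The interaction passed for 26 of them, 25 with a greater ratio in light and 1 with a smaller ratio (10.2% and 5.49% of all genes). Summed over the list, Δblr-1 light reached 3622 to 4051 CPM, Δblr-2 light 7582 to 9132 and WT light 21455 to 22034, and the 3 groups did not overlap. A large part of these sums was the unnamed Id 302581, which was not called. Its means were 1091 CPM in Δblr-1 light, 1632 in Δblr-2 light and 9969 in WT light. In Δblr-2 darkness the sum was 4582 to 4878.

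Both mutants were also compared with WT light on these genes. Over all genes, 330 (3.44%) were lower in Δblr-1 light than in WT light and 148 (1.54%) were higher, while 441 (4.59%) were lower in Δblr-2 light and 768 (8.00%) were higher. Of the 96 genes, 65 were lower in Δblr-1 and 0 higher (2 at an unadjusted p under 0.05 in edgeR), and 48 were lower in Δblr-2 and 16 higher. Both comparisons use the same 3 WT light libraries, so the counts are given side by side only. The study chose this list for higher levels in WT light in this same series. That choice alone favors counts of genes below WT light in either mutant. The median level of the list was 7.05 CPM in Δblr-1 light, 16.7 in Δblr-2 light and 27.9 in WT light.

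Some of the WT-induced genes were part of the way to WT in Δblr-2. Geranylgeranyl diphosphate synthase (Id 160158), which makes the precursor of carotenoids and other isoprenoids, was at 198 ± 11.4 CPM (SD, n = 3) in Δblr-1 light, 826 ± 74.0 in Δblr-2 light and 1527 in WT light. The fit gave a log2 ratio of 2.06 (95% interval 1.88 to 2.23, adjusted p = 1.34e-13). A cell division control protein (Id 155669) was at 33.8 ± 1.02 against 79.2 ± 5.65 CPM, with 336 in WT light (log2 ratio 1.24). An exo-alpha-sialidase (Id 297050), an enzyme that releases sialic acids, was at 61.1 against 148 CPM, with 248 in WT light. The unnamed Id 131348 was at 16.2 against 37.2 CPM with 300 in WT light, but in Δblr-2 darkness it was already at 43.9. A flavin-containing amine oxidase gene (Id 281337) also carried its difference into darkness, at 14.2 against 73.5 CPM in light and 12.6 against 61.4 in darkness.

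Other WT-induced genes rose in Δblr-2 to levels above WT. The plasma membrane proteolipid 3 gene (Id 260301), whose yeast relative PMP3 is a small hydrophobic membrane protein, had 19.8, 32.1 and 23.9 CPM in Δblr-1 light and 711, 472 and 535 in Δblr-2 light. The groups were 20.7-fold apart (log2 4.37, 95% interval 3.91 to 4.83, adjusted p = 2.95e-12), and WT light was at 32.7 CPM. In darkness the 2 mutants were at 18.2 and 35.1 CPM. Phospholipase D p1 (Id 34379), which makes the lipid signal phosphatidic acid, had 5.93, 6.26 and 6.18 CPM in Δblr-1 light and 143, 85.8 and 89.8 in Δblr-2 light. Its log2 ratio was 4.09 (adjusted p = 1.70e-12), with 14.2 CPM in WT light and dark means of 4.91 and 6.93. A gene for a CFEM protein (Id 297699), a family of cysteine-rich fungal surface proteins, had 45.5, 54.1 and 47.5 CPM against 611, 393 and 411 (log2 ratio 3.23), with 83.7 in WT light.

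The same order of strains held for further members of the list. A stress response protein gene (Id 151996) had 19.1, 22.1 and 21.5 CPM in Δblr-1 light and 270, 153 and 171 in Δblr-2 light (log2 ratio 3.20), with 49.3 in WT light. A C2H2 zinc-finger gene (Id 87968) had 15.2, 9.02 and 10.9 CPM against 183, 134 and 179 (16.0-fold), with 41.6 in WT light. A glycine-rich cell wall protein gene (Id 94244) had 3.29, 4.09 and 4.90 CPM against 148, 95.3 and 103 (log2 ratio 4.77), with 7.64 in WT light. In each of these genes the first Δblr-2 library was the highest of the 3. The unnamed Id 236801 showed the widest gap of the list, with 6.59, 5.86 and 4.69 CPM in Δblr-1 light and 372, 202 and 224 in Δblr-2 light. The fitted log2 ratio was 5.55 in light and 1.04 in darkness, and WT light was at 8.93 CPM.

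**Figure D4:**
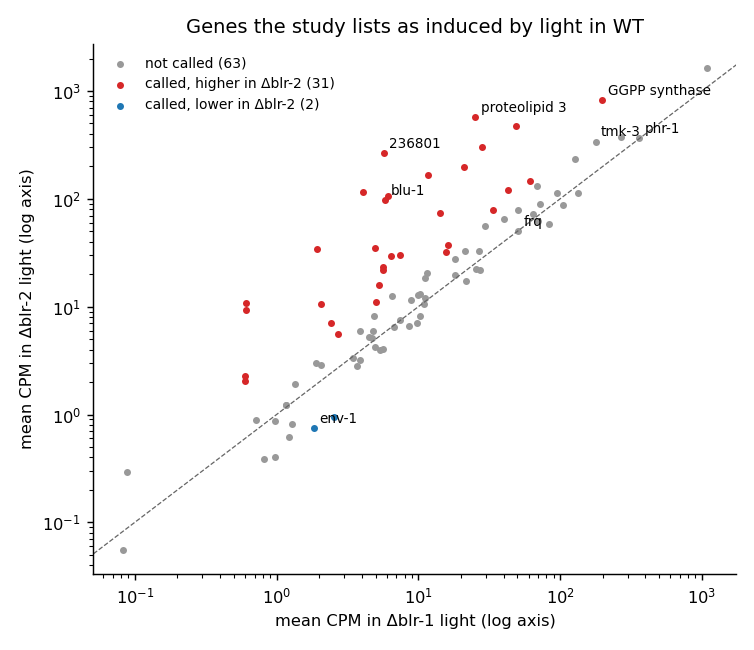
Mean CPM of the WT-induced genes in Δblr-2 light (vertical axis, log scale) against Δblr-1 light (horizontal axis, log scale), with a dashed line of equal level. Of 96 genes tested 94 are drawn and 2 with a mean of 0 are left out. The 31 called higher lie above the line and the 2 called lower, *env*-1 among them, lie under it.

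Genes that light represses in WT went the other way. Of 38 genes, 15 (39.5%) were lower in Δblr-2 light, beside 2.32% of all genes, and 3 (7.89%) were higher, close to the 8.33% of all genes, with a median log2 ratio of −0.90 against −0.01 over all genes. In darkness 14 were lower and 4 higher, beside 1.16% and 2.73% of all genes, and the interaction passed for 2 of the 38, both with a smaller ratio in light (5.49% of all genes). The list took 3594 to 4258 CPM in Δblr-1 light, 1946 to 2339 in Δblr-2 light and 1007 to 1367 in WT light. Most of each sum was *bld*-2, which was not called, with means of 2996, 1522 and 717 CPM. The median level of the list was 5.92, 2.64 and 3.04 CPM in the same order. Alanine-glyoxylate aminotransferase (AGT2, Id 223009), which turns glyoxylate into glycine, had 25.7, 32.2 and 23.2 CPM in Δblr-1 light and 1.18, 2.08 and 1.74 in Δblr-2 light. It was lower by 16.0-fold in light (95% interval of the log2 ratio −4.90 to −3.09, adjusted p = 2.26e-07), and its log2 ratio in darkness was −3.56. WT light was at 5.10 CPM, above Δblr-2 and under Δblr-1.

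Of the 4 transporter genes of that list 2 were lower in Δblr-2, with and without light. A monocarboxylate transporter gene of the major facilitator superfamily (Id 153853) had 2.64, 3.99 and 3.41 CPM in Δblr-1 light and 0, 0.249 and 0.290 in Δblr-2 light. The log2 ratio was −4.13 in light and −2.93 in darkness. Another transporter of this superfamily (Id 45374) had 50.1, 58.0 and 67.2 CPM against 15.3, 17.4 and 16.5, a log2 ratio of −1.85 in both conditions. The other two were not called, with log2 ratios in light of −0.74 for Id 284272 (adjusted p = 0.140) and 0.76 for Id 29031 (adjusted p = 0.360). Alcohol oxidase (Id 81139), which oxidizes primary alcohols with release of peroxide, went the opposite way. It had 1.98, 1.92 and 3.20 CPM in Δblr-1 light and 53.9, 30.3 and 40.3 in Δblr-2 light, a log2 ratio of 4.21 (95% interval 3.37 to 5.04, adjusted p = 3.25e-08). In darkness it was higher still in both mutants, 7.86 against 76.6 CPM, and its interaction did not pass (0.90, adjusted p = 0.291).

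Genes to which Δblr-1 itself responds were examined with the lists the study gives for that mutant. These lists were made with the same Δblr-1 light libraries, so their counts are no independent evidence of direction. Of 20 genes listed as light-induced in Δblr-1, 10 were higher in Δblr-2 light and 1 lower, beside 8.33% and 2.32% of all genes, with a median log2 ratio of 1.06. In darkness 7 were higher (2.73% of all genes), and the interaction passed for 9, of which 7 had a greater ratio in light and 2 a smaller one (10.2% and 5.49% of all genes). Summed, they took 718 to 948 CPM in Δblr-1 light and 2632 to 3327 in Δblr-2 light, from 330 to 429 and 693 to 746 in darkness. An SNF2-family gene (Id 211836), named for the ATPase domain of chromatin remodelers, led them with 44.8, 49.8 and 36.5 CPM in Δblr-1 light and 847, 600 and 759 in Δblr-2 light. Its log2 ratio was 4.05 in light (adjusted p = 1.51e-08) and 1.47 in darkness (adjusted p = 0.00827), with 114 CPM in WT light. A lipoxygenase-related gene (Id 33350), of a family that oxidizes polyunsaturated fatty acids, was at 365 against 917 CPM (log2 ratio 1.34). Of 7 genes listed as light-repressed in Δblr-1, 1 (14.3%) was higher and 2 (28.6%) were lower, beside 8.33% and 2.32% of all genes. The call of Id 242992, 1 of the lower genes, was lost at equal depth.

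Groups were also formed by product name. Names came mostly from the study's own lists of light-responsive genes, so these groups are not whole gene families. Of the 1023 called genes 84 had a name. Among the 261 tested genes with a product name, 59 (22.6%) were higher in Δblr-2 light and 25 (9.58%) lower, so these shares, and not only the 8.33% and 2.32% of all genes, stand beside the counts of such groups. Most of the 7 named ankyrin-repeat and NACHT protein genes were higher in Δblr-2 light. Ankyrin repeats bind other proteins, and the NACHT domain is an NTPase domain of fungal immune-type receptors. Of these 7 genes 5 were higher in Δblr-2 light and 0 lower (0 at an unadjusted p under 0.05 in edgeR, 0 with DESeq2 or limma-voom), with a median log2 ratio of 1.86. The interaction passed for 5, all with a greater ratio in light, beside 10.2% of all genes. Of the 7 genes 4, with 2 of the 5 higher calls, also stand in the list of genes light-induced in Δblr-1, which is no independent evidence of direction. Summed, the 7 genes took 179 to 195 CPM in Δblr-1 light, 509 to 603 in Δblr-2 light and 201 to 294 in WT light, and in darkness 71.6 to 97.9 and 103 to 128 in the 2 mutants. Id 318307 had 3.29, 2.51 and 1.92 CPM in Δblr-1 light and 95, 67.2 and 89.1 in Δblr-2 light. This is a log2 ratio of 5.09 (95% interval 4.44 to 5.74, adjusted p = 4.60e-11), its dark means were 1.90 and 2.78 CPM, and its interaction was 4.58 (adjusted p = 2.81e-06). Id 321974 was at 1.72 ± 0.927 against 63.9 ± 16.9 CPM, and the NACHT gene Id 93713 at 9.68 ± 3.10 against 84.6 ± 11.4. Id 322621 did not follow them, at 40.4 against 32.2 CPM (log2 ratio −0.37, interval −0.98 to 0.23). Members of such repeat families can share reads, and how the counting divided them is not known here.

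**Figure D5:**
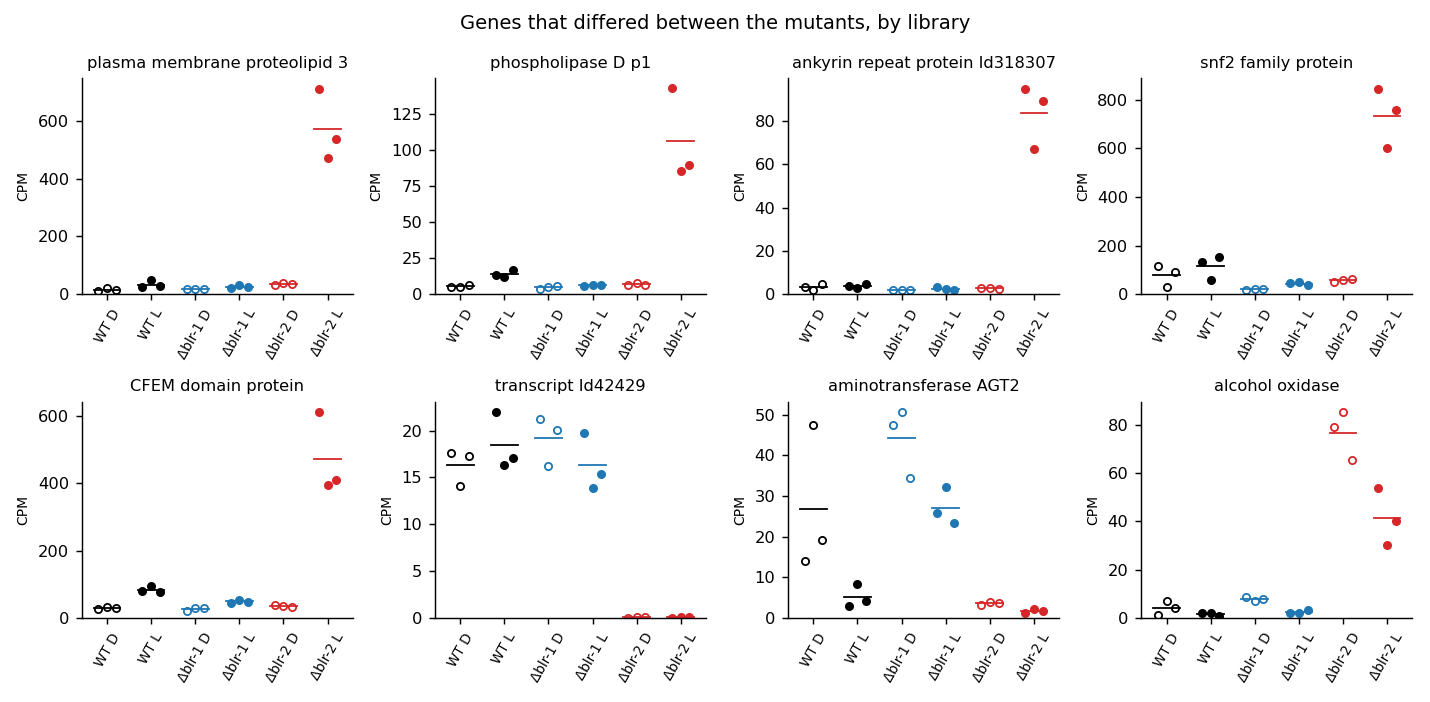
CPM (vertical axes, linear from 0) of 8 named genes in WT, Δblr-1 and Δblr-2, with 1 point per library, open for dark (D) and filled for light (L), and a line at each group mean. Id 42429 is at 13.8 to 19.8 in Δblr-1 light and at 0 to 0.145 in Δblr-2 light, and proteolipid 3 is at 19.8 to 32.1 and at 472 to 711.

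Among genes with a product name, oxidoreductases and transcription regulators went both ways. Of 32 oxidoreductases tested 7 (21.9%) were higher and 4 (12.5%) lower, near the 22.6% and 9.58% of all genes with a product name, with a median log2 ratio of −0.07. A flavin-binding monooxygenase (Id 134934) was at 54.0 ± 5.27 CPM in Δblr-1 light and 382 ± 126 in Δblr-2 light (log2 ratio 2.78), and salicylate hydroxylase (Id 89308) was at 43.6 ± 0.894 against 196 ± 17.0 (log2 ratio 2.16). Cyclohexanone monooxygenase (Id 88456) was lower, at 154 against 60.1 CPM, and phenol 2-monooxygenase (Id 298259), which hydroxylates phenols, was at 560 against 244 (log2 ratios −1.33 and −1.20). Of 15 transcription regulators 5 (33.3%) were higher and 2 (13.3%) lower, beside the same 22.6% and 9.58%, with a median of 0.25. Besides the C2H2 gene above, the regulators Id 41299 and Id 49937 were at 2.05 and 3.84 CPM in Δblr-1 light and at 10.6 and 15.2 in Δblr-2 light. The factor genes Id 87055 and Id 309446 were lower, with log2 ratios of −1.08 and −2.13. The call of Id 87055 was lost at equal depth (−0.72), without Δblr-1 light replicate 2 (−0.84) and without Δblr-2 light replicate 2 (−0.98).

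The named genes of wall proteins, secondary metabolism and transport held few further differences, which says nothing of unnamed genes of these classes. Of 19 secreted and wall proteins 4 (21.1%) were higher and 0 lower (2 at an unadjusted p under 0.05 in edgeR, 0 with DESeq2 or limma-voom), with a median of 0.08. Among all genes with a product name these shares were 22.6% and 9.58%. The list was formed by words in product names and its higher genes include phospholipase D, the CFEM protein and the glycine-rich wall protein described above. The remaining one, a feruloyl esterase that frees phenolic acids from plant cell walls (Id 289105), was at 1.08 against 4.25 CPM. Of 11 secondary metabolism enzymes 1 was higher, the geranylgeranyl diphosphate synthase, and 1 was lower (9.09% each way), a terpenoid synthase (Id 184804) at 1.49 against 0.300 CPM whose call was lost without Δblr-1 light replicate 2. Of 14 transporters 1 (7.14%) was higher, a MIP-family channel gene (Id 283564) at 2.42 against 7.13 CPM, and 2 (14.3%) were lower. The higher shares of both groups were under the 22.6% of all genes with a product name, and close to the 8.33% of all genes. Cyp51a (Id 48253), a lanosterol demethylase of ergosterol synthesis, was at 5.50 ± 1.82 against 1.39 ± 0.861 CPM (log2 ratio −1.95).

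The listed genes of DNA repair and of the supply of sulfur and serine held few differences. Of 14 repair and replication genes 1 was higher (7.14%, beside 8.33% of all genes) and 0 lower (5 at an unadjusted p under 0.05 in edgeR, 0 with DESeq2 or limma-voom). Their median log2 ratio was −0.13, and 12 (85.7%) were held within a 2-fold range, beside 73.8% of all genes. The 1 called gene, a mismatched base pair and cruciform DNA recognition protein (Id 32123), had a mean of 13.5 ± 2.24 CPM in Δblr-1 light and 174 ± 58.2 in Δblr-2 light. Its log2 ratio was 3.79 (adjusted p = 1.69e-12), with 14.8 CPM in WT light. Replication factor C subunit 4 (Id 157714), part of the clamp loader, was lower at 111 against 56.9 CPM but short of the fold limit (log2 ratio −0.94, interval −1.14 to −0.74). The 4 sulfate and serine genes were all held within a 2-fold range. Among them the sulfite reductase beta subunit (Id 128510), of the pathway that makes sulfide for cysteine, was at 740 ± 60.2 against 497 ± 49.5 CPM (log2 ratio −0.57, adjusted p = 3.82e-06). Of 48 tested genes that the study lists as repressed in Δ*env*-1 alone, 4 were higher, the same 8.33% as over all genes, and 0 were lower (0 at an unadjusted p under 0.05 in edgeR, 0 with DESeq2 or limma-voom), with a median log2 ratio of 0.34.

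The genes with the largest ratios mostly carried no product name in the sources used here, since products were known for 261 of the tested genes. Id 28704 had 0, 0.296 and 0.426 CPM in Δblr-1 light and 95, 46.0 and 45.9 in Δblr-2 light, or 8 against 1514 counts. The fit gave a log2 ratio of 7.62 (95% interval 6.58 to 8.67, adjusted p = 1.39e-10), its dark means were 0.560 and 0.439 CPM, and WT light was at 0.757. Id 220414 had 1.32, 1.92 and 2.13 CPM against 134, 97.7 and 124, a log2 ratio of 5.93 in light and 1.87 in darkness. Id 91076 had 5.93, 7.34 and 5.54 CPM against 390, 201 and 231, and Id 318608 had 5.27, 6.65 and 9.17 against 367, 194 and 183. Both had dark ratios whose tests missed the threshold (log2 0.31 and 0.52).

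Other unnamed genes had no or almost no count in Δblr-1 light. Id 29956, Id 40549, Id 91079 and Id 305527 had 0 counts there, and against a floor of 3 counts over the pooled group their pooled counts were at least 28.2-fold, 25.8-fold, 17.9-fold and 8.93-fold higher in Δblr-2. Id 259435 had 3 counts against 510, a pooled ratio of 175 (95% counting interval 59.6 to 852), and Id 301284 had 3 against 220, a ratio of 75.6 (25.5 to 369). The call of Id 259435 was lost with DESeq2, with limma-voom, at equal depth and without Δblr-1 light replicate 2, and that of Id 305527 was lost without Δblr-1 light replicate 2. Named genes with large ratios included a gene of the Shwachman-Bodian-Diamond protein family (Id 301468), which acts in ribosome maturation, at 34.8 ± 5.08 against 408 ± 145 CPM. A platelet-activating factor acetylhydrolase gene (Id 253926) was at 0.389 CPM in Δblr-1 light and 10.4 in Δblr-2 light.

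In the other direction 1 transcript was seen in Δblr-1 and was all but missing from Δblr-2. Id 42429 had 30, 281 and 72 counts in Δblr-1 light and 108, 249 and 112 in Δblr-1 darkness. In Δblr-2 it had 0, 1 and 1 counts in light and the same 0, 1 and 1 in darkness. As levels these were 19.8, 13.8 and 15.3 CPM against 0, 0.0831 and 0.145 in light, and WT light was at 18.4. The pooled light ratio was 186-fold lower in Δblr-2, with a 95% counting interval of 51.1 to 1540. It was the only transcript with at most 3 counts in each of 6 libraries of 1 mutant and at least 10 in each of the 6 of the other, and 0 transcripts met this rule with the mutants exchanged. Within the light libraries alone 3 transcripts met it in Δblr-1 and 9 in Δblr-2. What Id 42429 encodes is not given in the sources used here, and whether it is the deleted gene was not tested.

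Further genes were low in Δblr-2 light. Id 179280, a WT-repressed gene, had 16.5, 6.46 and 3.62 CPM in Δblr-1 light and 0 counts in all 3 Δblr-2 light libraries, so in the pooled counts it was at least 55.9-fold lower. In darkness it was at 23.0 against 8.82 CPM. Id 282604 had 36.2, 34.0 and 30.1 CPM in Δblr-1 light and 0.590, 2.16 and 1.01 in Δblr-2 light (log2 ratio −4.53, adjusted p = 4.43e-11), with 54.9 in WT light and a dark ratio of −2.05. Id 260298 was abundant, with 2166, 1994 and 1546 CPM in Δblr-1 light and 144, 223 and 240 in Δblr-2 light. Its log2 ratio was −3.23 (adjusted p = 1.58e-10) in light and −1.81 in darkness, and WT light was at 1568. An F-box gene (Id 242992) had 0, 4.39 and 2.56 CPM in Δblr-1 light and 0 in Δblr-2 light. It was at least 32.7-fold lower in the pooled counts, but its 2 groups overlapped at 0 in the shallowest library, and its call was lost at equal depth.

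Called genes also lay side by side in the genome. The order of genes came from the RefSeq table of another strain of the species (assembly ASM2064779v1, strain P1), to which 9014 tested Ids matched, and no coordinates are given because the builds differ. Runs of 3 or more consecutive tested genes called in the same direction numbered 28, of which 24 were higher and 4 lower in Δblr-2, and together they held 96 of the 1023 called genes. There were 3 runs of 5 genes, 6 of 4 and 19 of 3. One run of 5 held the SNF2-family gene Id 211836 and Id 289148, the latter at 6.28 against 75.8 CPM. Another held Id 177455 at 77.0 against 388 CPM. The third held Id 28704 and Id 29956, described above, beside Id 302318 at 129 against 475 CPM. A run of 4 lower genes held Id 86201 at 64.4 against 12.4 CPM. All members were also called in darkness in 3 of the runs, and in 11 no member was. How often such runs arise by chance was not tested.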

How the data were processed

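RNA of mycelium was sequenced, and per the labels and the study's methods the authors quantified reads with kallisto against the predicted transcripts and deposited the estimated counts of all samples in 1 table, with no normalization. The deposited values are not whole for 8.35% of entries and were rounded. Of the columns, 24 were matched to samples, and 12 others were not used. Δ*env*-1 dark replicate 3 was kept out of the fit, as the submitters describe. The transcripts that passed edgeR's filterByExpr (minimum count 10) were fitted over 23 libraries with 1 mean per strain and treatment, using TMM and the quasi-likelihood test of edgeR 4.0.16 (limma 3.58.1, R 4.3.3). P-values were adjusted over all genes tested by the Benjamini-Hochberg method, and 95% intervals came from the same fit. The interaction was called on its adjusted p alone. Intervals on pooled counts are exact binomial ones, and they and the 3-count floors cover counting error only. A binomial thinning to the shallowest of the 12 mutant libraries, other filters, scalings, tests (DESeq2 1.42.0, limma-voom), subsets of libraries, rounding, thresholds, a replicate block and the removal of each library were tried as alternatives.

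The members and the gene lists were chosen with earlier results of these data known. Ids, product names and the study's lists came from its supplementary tables, while the fold changes and p-values there were not used. Named were photoreceptor, clock, reporter and conidiation genes, the 10 called genes with the largest ratio in each direction whose groups do not overlap, up to 15 called genes in each direction with a product name, members of runs, transcripts seen in 1 mutant only, and up to 10 genes in each direction of the interaction. Further members of a list were named after their values were seen. Scripts were tested on simulated counts. Replicate pairs differed by more than sampling noise, so each was counted as its own sample.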

Additional observations from a re-analysis of the deposited data

Results flagged for a closer look

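The difference between Δblr-2 and Δblr-1 depended on light for 1504 genes, by edgeR's interaction test in the fit shared by all libraries. The groups of 3 libraries are too small for a test of single outlying samples. Interaction values below are log2 ratios of the Δblr-2 over Δblr-1 ratio in light to that in darkness.

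The ratio was greater in light for *blu*-1 (Id 300570), by 4.04, and for *tmk*-3 (Id 301235), by 0.82, and in each the 3 Δblr-2 light libraries lay above all libraries of Δblr-1. It was also greater for the ankyrin-repeat gene Id 318307 (4.58) and for the unnamed genes Id 91076 (5.03), Id 316685 (5.03), Id 318608 (4.59), Id 29411 (4.93), Id 301284 (5.11), Id 16953 (5.59), Id 28704 (8.42) and Id 40549 (8.23). Id 256410 had the largest value, 11.8, but it had no count in the 3 Δblr-2 dark libraries and 19 against 216 counts in light. Its light call was lost with DESeq2, with edgeR's likelihood ratio test, with glmTreat, at equal depth, and without Δblr-1 light replicate 2 or Δblr-2 light replicate 2 or 3.

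The ratio was smaller in light for Id 282604 (−2.48), Id 91815 (−2.69), Id 40284 (−2.44), Id 302543 (−2.23) and Id 86022 (−1.90). It was also smaller for Id 302419 (−2.02), which was at 522 and 114 CPM in light and 423 and 376 in darkness in Δblr-1 and Δblr-2. The abundant Id 299629 (−2.01) was at 3214 and 507 CPM in light and 2665 and 1695 in darkness. Values of −7.95 for Id 179280 and −7.48 for Id 298191 come from genes with no count in Δblr-2 light, and −6.31 for Id 256835 from a gene at 0.125 CPM in Δblr-1 darkness. Fitted values of genes with a group at 0 depend on the small count that the fit adds and are no measure of size.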

How the results depend on the processing

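The light count of 1023 stayed within 1.5 times under other filters, scalings and tools, from 829 with the mutant libraries thinned to equal depth to 1064 without a filter, and no called gene was called in the opposite direction. A test against a 2-fold change itself (glmTreat) left 492 calls in light (421 higher, 71 lower) and 112 in darkness (90 and 22). Without a fold minimum there were 3923 (2142 and 1781) and 1832 (1042 and 790). Thinning reduced the interaction to 869 genes (571 and 298). Leaving out 1 library gave 898 to 1077 calls in light, 325 to 380 in darkness and 1049 to 1592 for the interaction. Ratios that were smaller in light numbered 304 to 590, with 304 without Δblr-2 light replicate 1 and 351 without Δblr-1 light replicate 2. Deviations of same-numbered libraries correlated at up to 0.0600 between the mutants, at 0.115 to 0.199 between light and darkness of Δblr-1, where each library correlated best with its own number, and at 0.00103 to 0.0882 for Δblr-2. The main fit did not take the numbers as pairs, although the values of Δblr-1 light and darkness go with a pairing. With the replicate block, 1014 genes were called in light, 386 in darkness and 1661 for the interaction, the last in place of 1504. Ratios near 0 changed sign for *phr*-1 (Id 302457; −0.00831 when thinned, −0.0592 to 0.0906 with 1 library left out), *frq* (Id 131340; −0.0838, −0.0937 to 0.11), a hydrophobin (Id 258295; −0.85 to 0.25) and Id 256835 (−1.64 to 0.32), and the cause was not tested. Among values of named genes, 1342 kept direction and call, 37 lost the call (15 genes) and 9 gained it (4 genes). The shallow first Δblr-1 light library limits genes under about 2 CPM, and without it 1014 genes were called.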
